A study of Homo sapiens with 6 samples.

Results

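The S100 proteins are a family of small calcium-binding proteins, and 10 of their genes were followed here in a pancreatic cancer line with and without the transcription factor GLI2: S100A2, S100A4, S100A6, S100A8, S100A9, S100A10, S100A11, S100A14, S100A16 and S100P. They were chosen by symbol, as 10 of the 25442 genes of the expression table, and each symbol matched 1 entry. The other 11 S100 genes in the table were read beside them.

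An S100 protein folds as a pair of EF-hands, usually works as a dimer, and on binding calcium exposes a surface that grips partner proteins, among them annexins and myosin. Inside the cell these pairings bear on the cytoskeleton, membrane repair and the cell cycle, and several S100 proteins are also released and bind cell-surface receptors such as RAGE (gene AGER) and TLR4. In pancreatic ductal adenocarcinoma, S100P is a well-known marker of the tumor epithelium, S100A4 is linked to migration, and S100A2 is read as a marker of the squamous or basal-like subtype.

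The samples were 6 RNA-seq libraries of YAPC, a human pancreatic cancer cell line of the classical subtype. The iGLI2 cells (3 libraries) carried GLI2 in the doxycycline (Dox)-inducible plasmid pRetroX-Tight-Puro, and the iEV cells (3 libraries) carried the same plasmid empty. All 6 libraries, controls included, came from cells kept in Dox for 6 days, so no library shows either line without Dox, and the comparison is of 2 engineered lines of 1 cell line, neither of which is described as a single clone or as a pool. The study used the pair to ask which genes change when GLI2 is induced in classical cells, and it lists S100A2 among basal-like and S100P among classical signature genes drawn from tumor cohorts. From these RNA-seq data it already names S100A2 as one of the transcripts raised most by GLI2. It also reports less S100A2 protein staining in xenografts of basal-like cells with GLI2 knocked out.

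The table gives FPKM, a count of fragments scaled to the length of the transcript and to the fragments in the library, so that levels can be compared between genes. GLI2 itself was at 0.466, 0.412 and 0.344 FPKM in iEV replicates 1 to 3 and at 94.5, 207 and 195 FPKM in iGLI2 replicates 1 to 3, which fits the labels of all 6 libraries, and iGLI2 replicate 1 held the least GLI2 of its group. Summed over all genes, FPKM ran from 981341 to 1082684 in iEV and from 803145 to 889555 in iGLI2, and 45.4% to 48.4% of it in iEV and 38.9% to 40.4% in iGLI2 fell on small RNA genes, mostly MIR4461. The number of reads behind a value is unknown, so no counting error is given. The epithelial markers EPCAM, CDH1 and KRT19 were present (summed list 1025 to 1156 FPKM in iEV and 1111 to 1173 in iGLI2), while KRT8 and KRT18 were listed at 0 in all 6 libraries. EPCAM (405 ± 11.4 and 523 ± 2.55 FPKM in iEV and iGLI2, SD, n = 3 each) and CDH1 (53.2 ± 2.77 and 68.9 ± 3.88 FPKM) were both higher in iGLI2. KRT19 had the lower mean in iGLI2 (621 ± 54.3 and 547.5 ± 28.7 FPKM), with overlap (limma adjusted p 0.195). For E-Cadherin, the protein of CDH1, the study reports a fall in YAPC cells with stable GLI2, which is another measure and another construct. The part of any such shift in the S100 values was not tested. KRT8 and KRT18 are used by nearly every simple epithelial cell, so a listed 0 in this table is not read as absence.

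The promoters of 3 members are shown because they carry the largest change, the only fall, and the member most abundant in the control cells. Each is the stretch of 250 bases before the annotated start in RefSeq (GRCh38.p14 table, all 10 members matched), read 5′ to 3′ on the gene's strand, and each was found once in GRCh37, the build named hg19 by the authors. Positions are counted back from the start. S100A2 at chr1:153538321-153538570 (minus strand) has an AP-1 motif (TGANTCA) in capitals at position -52. S100P at chr4:6695355-6695604 (plus strand) has a TATA box (TATAAA) in capitals at -28. S100A4 at chr1:153518283-153518532 (minus strand) has in capitals a TATA box at -31 and, at -233, the letters TGGGTGGTG, which read on the other strand match the GLI consensus GACCACCCA with at most 1 mismatch.
S100A2: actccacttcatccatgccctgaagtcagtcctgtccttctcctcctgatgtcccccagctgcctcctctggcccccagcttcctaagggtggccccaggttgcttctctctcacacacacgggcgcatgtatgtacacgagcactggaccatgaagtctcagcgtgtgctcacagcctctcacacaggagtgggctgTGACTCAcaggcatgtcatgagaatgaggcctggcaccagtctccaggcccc
S100P: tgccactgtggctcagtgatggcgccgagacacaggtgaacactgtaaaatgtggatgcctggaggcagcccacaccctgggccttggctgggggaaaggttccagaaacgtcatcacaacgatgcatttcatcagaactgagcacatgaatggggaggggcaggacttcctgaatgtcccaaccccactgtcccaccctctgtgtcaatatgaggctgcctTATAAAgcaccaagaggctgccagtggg
S100A4: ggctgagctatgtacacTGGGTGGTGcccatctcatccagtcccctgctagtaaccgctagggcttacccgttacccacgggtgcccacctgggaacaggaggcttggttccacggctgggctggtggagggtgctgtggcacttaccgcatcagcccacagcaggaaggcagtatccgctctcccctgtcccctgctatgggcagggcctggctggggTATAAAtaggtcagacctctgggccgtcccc

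Both strands were searched over windows of 300 bases, from 250 before to 50 after each start. The exact GLI consensus was in none of the windows of the 10 members, and among all 35093 windows of the table it was in 0.24%. With at most 1 mismatch it was in 6.74% of all windows, which takes in 1 S100A4 window and 1 S100A8 window (GACCACCAA at -224). TATAAA was in 11.54% and TGANTCA in 7.71% of all windows. Among the members, TATAAA was in windows of S100A4, S100A8, S100A9 and S100P, and TGANTCA, which reads the same on both strands, in a window of S100A2 alone. No match overlapped another motif. Outside the members, TGANTCA was also in windows of S100A3 (TGAGTCA at -225) and S100A5 (TGAGTCA at -17), which were not called in the test below. TATAAA was also in a window of S100A13. A second annotated start of S100A2, with a window at chr1:153536314-153536613, held none of these letters. A match in these windows is a run of letters and was not measured as a bound site, and GLI2 binding outside them was not analysed here.

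Of the 10 members, 7 reached the minimum mean of 1 FPKM for testing, and 4 rose and 1 fell in iGLI2 cells (limma on log2(FPKM + 1), Benjamini-Hochberg adjusted p under 0.05 over all 12493 genes tested). S100A2, S100A6, S100A11 and S100A16 rose, S100P fell, and S100A4 and S100A10 were not called. Among all genes tested, 10.1% were called higher and 11.8% lower. The median log2 fold change of the 7 tested members was 0.38, beside -0.01 over all genes tested. The lowest group mean of a tested member was 8.22 FPKM, so none passed the minimum through 1 group alone. S100A8, S100A9 and S100A14 were under the minimum. In bulk RNA, more cells that use a gene and more of its RNA in each cell cannot be told apart. The labels do not say whether replicates are separate cultures, so every p-value here measures the spread between these libraries, which may be technical.

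**Figure D1:**
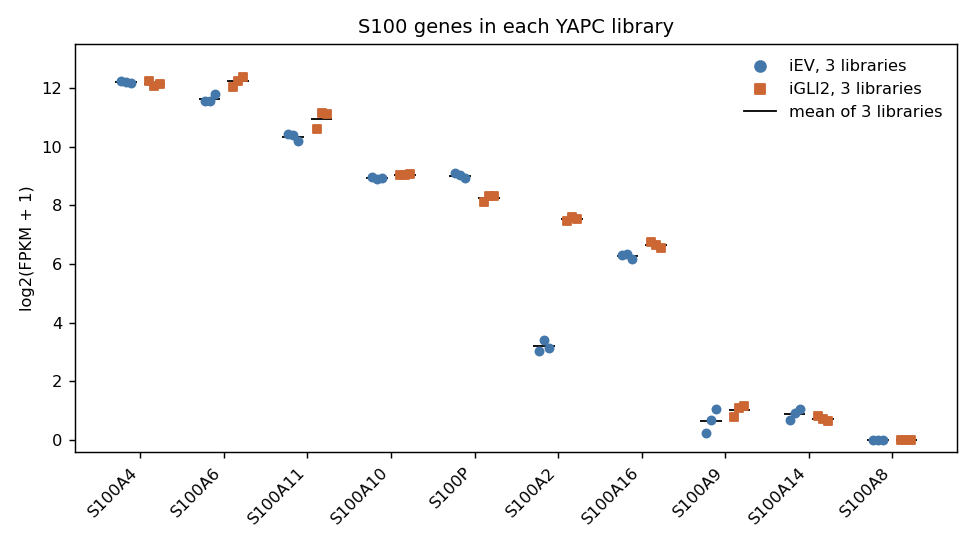
The level of each S100 gene is plotted as log2(FPKM + 1) on the vertical axis, with 1 point per library and the 3 iEV and 3 iGLI2 libraries in separate colors. S100A2 shows the widest gap between the groups (7.14 to 9.65 FPKM against 175 to 192 FPKM), S100A4 overlaps, and S100A8 lies at 0.

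The order of the levels differed between the lines. In iEV cells the means ran from S100A4 through S100A6, S100A11, S100P, S100A10, S100A16 and S100A2 to S100A14, S100A9 and S100A8. S100P and S100A10 overlapped in that order, as did S100A14 and S100A9, and no other neighbours did. In iGLI2 cells S100A6 stood first by mean but overlapped with S100A4, then came S100A11, S100A10, S100P, S100A2 and S100A16, each clear of the next, and S100A9 and S100A14 overlapped again. Genes were also ranked by mean FPKM, with the 2078 small RNA genes left out. S100A4 ranked 3 in iEV and 4 in iGLI2, and S100A6 moved from 12 to 3. S100A11 went from 57 to 22, S100P from 148 to 238, and S100A2 from 7177 to 406.

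S100A2 encodes a mostly nuclear S100 protein of epithelia. Its locus in the table is chr1:153533585-153538306. It was at 7.14, 9.65 and 7.88 FPKM in iEV replicates 1 to 3 and at 175, 192 and 184 FPKM in iGLI2 replicates 1 to 3. The lowest iGLI2 library lay far above the highest iEV library. Mean FPKM was 8.22 ± 1.29 in iEV and 184 ± 8.56 in iGLI2 (SD, n = 3 each), a ratio of 22.3. On the log2 scale the change was 4.33 (SE 0.11, limma adjusted p 5.6e-05), less than the log2 of the ratio because 1 FPKM is added to each value before the logarithm. Relative spread was 15.7% of the mean in iEV and 4.66% in iGLI2. Over the 15 alternative settings the log2 fold change stayed between 4.25 and 4.48 and the adjusted p stayed at or below 0.00176. The promoter with the AP-1 motif shown above belongs to this gene, and windows of S100A3 and S100A5 held that motif too.

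S100P, the only member on chromosome 4 (chr4:6695566-6698897), encodes a secreted S100 protein that signals through RAGE and binds ezrin. Its FPKM was 546, 521 and 484 in iEV and 279, 321 and 321 in iGLI2. Every iGLI2 library lay below every iEV library. Mean FPKM was 517 ± 31.4 in iEV and 307 ± 24.2 in iGLI2 (SD, n = 3 each). This was a log2 change of -0.75 (SE 0.09, limma adjusted p 0.00289), and the fall held in all 15 alternatives (-0.80 to -0.64, adjusted p at most 0.0210). With small RNA genes left out, S100P was still among the 250 most abundant genes in iGLI2 cells.

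The ratio of S100A2 to S100P within a library does not depend on how libraries were scaled. It was 0.0131, 0.0185 and 0.0163 in iEV and 0.628, 0.599 and 0.574 in iGLI2. The 2 sets did not overlap and differed by 5.25 on the log2 scale, or 38.0-fold, with an exact permutation p of 0.1 (two-sided, n = 3 each), the smallest that 3 against 3 can give. It was 1 of 3 ratios tested, and p adjusted over them was 0.1 for each. S100P remained the more abundant transcript of the pair in every library.

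S100A4, S100A6, S100A10 and S100A11 are the abundant, widely used members, which bind cytoskeletal and membrane proteins. S100A6 (chr1:153507076-153508717) encodes calcyclin, which binds the ubiquitin ligase adaptor encoded by CACYBP. It was at 2993, 3015 and 3550 FPKM in iEV and at 4230, 4850 and 5333 FPKM in iGLI2, without overlap. Mean FPKM was 3186 ± 316 in iEV and 4805 ± 553 in iGLI2 (SD, n = 3 each). On the log2 scale the change was 0.59 (SE 0.12, limma adjusted p 0.0177). Over the alternatives the value ran from 0.51 to 0.80, and the call was lost with no filter on low values (adjusted p 0.104), without iEV replicate 1 (0.0608), iEV replicate 2 (0.0840), iGLI2 replicate 2 (0.0848) or iGLI2 replicate 3 (0.0728).

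S100A11 (chr1:152004982-152009511) encodes calgizzarin, a partner of annexin A1 that takes part in membrane repair. It was at 1388, 1347 and 1177 FPKM in iEV and at 1569, 2263 and 2224 FPKM in iGLI2. The groups did not overlap, and iGLI2 replicate 1 lay much nearer to the iEV libraries than the other two did. Mean FPKM was 1304 ± 112 in iEV and 2019 ± 390 in iGLI2 (SD, n = 3 each). This was a log2 change of 0.61 (SE 0.16, limma adjusted p 0.0437), the largest adjusted p of the 5 calls. It was lost with no filter (adjusted p 0.0822), with the digit in the library codes as a block (0.0787), and without any of iEV replicate 1 (0.0840), iEV replicate 2 (0.123), iEV replicate 3 (0.152), iGLI2 replicate 2 (0.142) or iGLI2 replicate 3 (0.136), with log2 fold changes from 0.52 to 0.79 over the alternatives.

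S100A16 (chr1:153579367-153585514) encodes a widely expressed member with an atypical EF-hand. Its FPKM was 78.0, 80.5 and 70.6 in iEV and 108, 100.2 and 92.1 in iGLI2. All iGLI2 libraries were higher. Mean FPKM was 76.4 ± 5.15 in iEV and 100.1 ± 7.88 in iGLI2 (SD, n = 3 each). On the log2 scale the change was 0.38 (SE 0.09, limma adjusted p 0.0269). The call was lost without iEV replicate 1 (adjusted p 0.0595), iEV replicate 2 (0.0691), iEV replicate 3 (0.0898) or iGLI2 replicate 2 (0.0921).

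S100A4 (chr1:153516095-153524245), also called metastasin or FSP1, encodes a partner of non-muscle myosin IIA and is used as a fibroblast and mesenchymal marker. It was at 4834, 4709 and 4564 FPKM in iEV and at 4798, 4254 and 4479 FPKM in iGLI2. The groups overlapped, with the highest iGLI2 library beside the highest iEV library. Mean FPKM was 4702 ± 135 in iEV and 4510 ± 273 in iGLI2 (SD, n = 3 each). This was a log2 change of -0.06 (SE 0.07, limma adjusted p 0.575). With small RNA genes left out and libraries rescaled, the sign turned (0.02). Its locus in the table also takes in S100A3 and LOC101928034, so their reads may have been divided among them. Of 5 fibroblast markers, 4 were under 1 FPKM in all libraries, DCN among them at 0, and the list summed to 1.35 to 1.57 FPKM in iEV and 2.30 to 3.01 FPKM in iGLI2. Most of that sum was COL1A1, which rose from 1.41 ± 0.127 to 2.69 ± 0.365 FPKM (SD, n = 3 each; limma adjusted p 0.0110).

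S100A10 (chr1:151955386-151966714) encodes p11, which binds annexin A2 and in that complex holds plasminogen and its activators at the cell surface. It was at 498, 474 and 486 FPKM in iEV and at 525, 529 and 532 FPKM in iGLI2. The iGLI2 libraries were all higher and very close to each other. Mean FPKM was 486 ± 12.2 in iEV and 529 ± 3.46 in iGLI2 (SD, n = 3 each), but the log2 difference of 0.12 (SE 0.05) was not called (limma adjusted p 0.171), except under quantile normalization (0.24, adjusted p 0.0278).

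**Figure D2:**
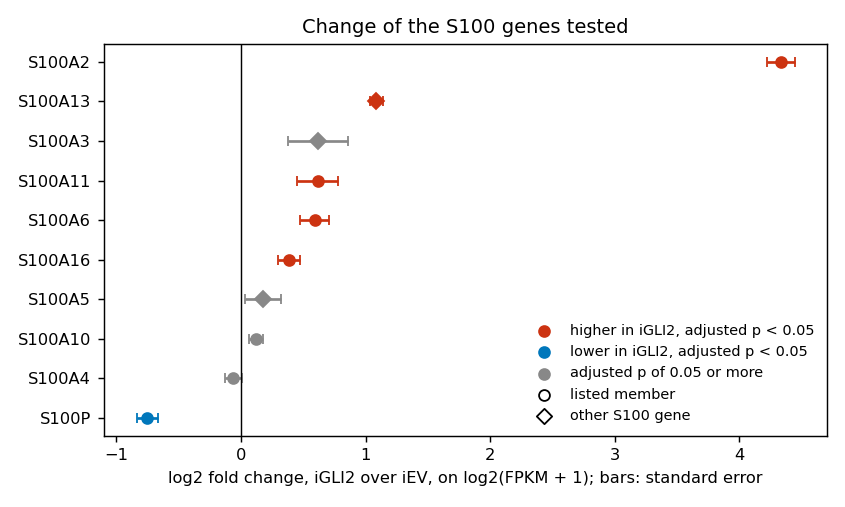
The log2 fold change of each tested S100 gene, iGLI2 over iEV on log2(FPKM + 1), is plotted on the horizontal axis with its standard error, with the 7 tested members as circles and 3 further S100 genes as diamonds, colored by call. S100A2 stands at 4.33, S100P at -0.75, and the other members lie between -0.06 and 0.61.

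The remaining members were at 0 or near 1 FPKM. S100A8 and S100A9 form calprotectin, a complex that myeloid and squamous cells make in large amounts. S100A8 (chr1:153362508-153363664) was listed at 0 in all 6 libraries. S100A9 (chr1:153330330-153333503) was at 0.198, 0.606 and 1.08 FPKM in iEV and at 0.730, 1.16 and 1.25 FPKM in iGLI2, with overlap, and with no filter its log2 fold change of 0.36 was not called (limma adjusted p 0.357). S100A14 (chr1:153586732-153588808), an epithelial member, was at 0.610, 0.916 and 1.07 FPKM in iEV and at 0.784, 0.660 and 0.560 FPKM in iGLI2, also with overlap, and the change of -0.15 was not called (limma adjusted p 0.416 with no filter). Of 6 myeloid markers, 3 (PTPRC, ITGAM and CSF1R) were under 1 FPKM throughout, and the list summed to 18.5 to 21.7 FPKM in iEV and 10.4 to 18.3 FPKM in iGLI2. Within it CD14 fell from 4.64 ± 0.583 to 1.62 ± 0.319 FPKM (SD, n = 3 each; limma adjusted p 0.00274). LYZ, the largest value of the list, was at 11.7 ± 2.13 FPKM in iEV and 8.45 ± 4.97 FPKM in iGLI2. CD68 was at 3.0 and 2.9 FPKM, and neither LYZ nor CD68 was called (limma adjusted p 0.331 and 0.748). All 3 endothelial markers were under 1 FPKM. The part of CD14, COL1A1 or the cells they mark in the S100 values was not tested.

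Among the iGLI2 libraries, replicate 1, which held the least GLI2, was also the lowest iGLI2 library for S100A2, S100A6, S100A9, S100A10, S100A11 and S100P, and the highest for S100A4, S100A16 and S100A14. With 3 libraries, the relation of these levels to GLI2 was not tested. Without this library, 4 members were still called higher and 1 lower, and the log2 fold change of S100A11 was 0.79.

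Summed over the 10 members, FPKM was 10345, 10158 and 10342 in iEV and 11685, 12512 and 13167 in iGLI2, without overlap. The mean sum was 21.1% higher in iGLI2 (12454 ± 743 against 10282 ± 107 FPKM; SD, n = 3 each). The sum made up 1.82% to 1.93% of the FPKM outside small RNA genes in iEV and 2.36% to 2.45% in iGLI2. S100A4 and S100A6 made up most of it in every library, so the level of the sum mainly reads those genes. Its rise did not follow S100A4. Mean FPKM went up for S100A6 (3186 to 4805) and S100A11 (1304 to 2019), and down for S100A4 (4702 to 4510, with overlap) and S100P (517 to 307).

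Each member's share of the sum is given as a description, with no test. S100A4 held 45.7% ± 1.40 of it in iEV and 36.4% ± 4.07 in iGLI2, and S100A6 held 31.0% ± 2.92 and 38.5% ± 2.17 (SD, n = 3 each). The share of S100A11 was 12.7% ± 1.13 and 16.1% ± 2.42, and that of S100P was 5.03% ± 0.314 and 2.46% ± 0.0911. S100A2 held 0.0801% ± 0.0134 in iEV and 1.48% ± 0.0701 in iGLI2. Despite its large fold change, it stayed a small part of the S100 transcripts.

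**Figure D3:**
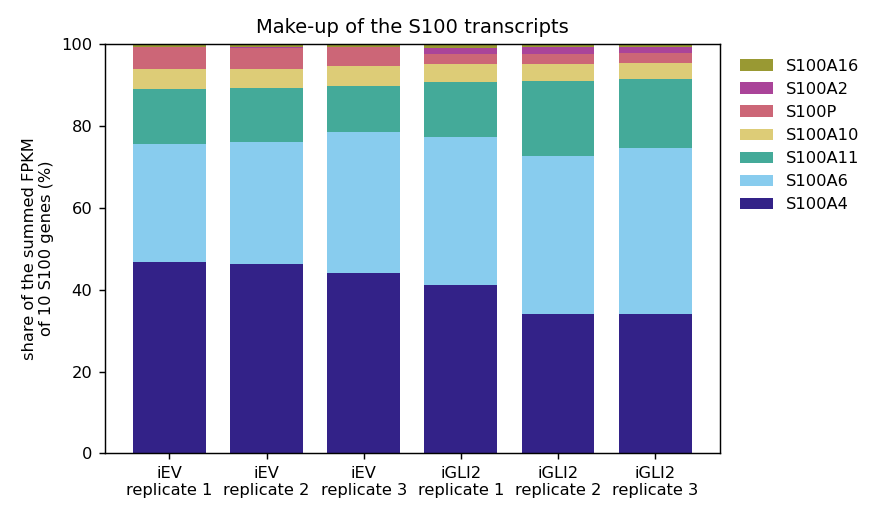
The share of the summed FPKM of the 10 members that each holds (vertical axis, percent) is drawn as a stacked bar for each of the 6 libraries. The S100A4 band is 44.1% to 46.7% in iEV and 34.0% to 41.1% in iGLI2, and the S100P band is 4.68% to 5.28% and 2.39% to 2.56%.

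S100A4 and S100A6 are neighbours on chromosome 1, and their ratio within a library was 1.62, 1.56 and 1.29 in iEV and 1.13, 0.877 and 0.840 in iGLI2. The difference was -0.65 on the log2 scale, with no overlap (exact permutation p 0.1, two-sided, n = 3 each, the smallest possible). The S100A4 transcript thus exceeded that of S100A6 in all iEV libraries and in 1 of 3 iGLI2 libraries.

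Of the 11 other S100 genes, 3 were tested and 1 rose. S100A13, which takes part in the release of FGF1, was at 104, 106 and 106 FPKM in iEV and at 223, 220.5 and 228 FPKM in iGLI2. The groups were far apart relative to their spread. Mean FPKM was 105 ± 1.10 in iEV and 224 ± 3.91 in iGLI2 (SD, n = 3 each). On the log2 scale the change was 1.08 (SE 0.05, limma adjusted p 2.18e-04), the second largest of the family. Its exons overlap those of S100A1 on the other strand over 235 bases, and since the files do not say that counting used strand, reads of the 2 genes there cannot be told apart. Its locus in the table (chr1:153591276-153618782) also takes in CHTOP, and how reads were divided among the 3 genes is not known. CHTOP was at 29.6 to 34.0 FPKM over the 6 libraries. S100A1 was at 0.574 to 0.641 FPKM in iEV and at 0.622 to 1.33 FPKM in iGLI2.

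S100A3 and S100A5, which lie between S100A6 and S100A2, were low. S100A3 was at 4.83, 9.55 and 7.13 FPKM in iEV and at 8.96, 12.8 and 12.2 FPKM in iGLI2, with overlap, and was not called (0.62, SE 0.24, limma adjusted p 0.125). It passed the threshold with small RNA genes left out and libraries rescaled (adjusted p 0.0486). S100A5 was at 1.77 to 2.59 FPKM in iEV and at 2.03 to 2.97 FPKM in iGLI2 (0.18, adjusted p 0.435). S100A7A, S100A7L2, S100A12 and S100G were listed at 0 in all libraries. S100A7 and S100B were listed above 0 in a single library each, and S100Z was at most 0.0331 FPKM. Of all 21 S100 genes, 10 were tested, of which 5 rose, 1 fell and 4 were not called. Beside this, 10.1% of all genes tested were called higher and 11.8% lower.

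Most S100 genes lie in 1 stretch of chromosome 1, and the members that moved were read along it together with every other gene tested within 500 kb of a member. Measured from the start of S100A2, S100A4 starts at -17.8 kb, S100A6 at -31.6 kb and S100A16 at 45.3 kb. S100A11 and S100A10 lie in a separate group at -1520 and -1574 kb. These starts are the outermost gene ends in the GENCODE annotation, not the RefSeq starts used for the promoters. Of the 22 other genes tested near the members, 2 rose, 1 fell and 19 were not called, with a median log2 fold change of 0.00. The shares over all genes tested were 10.1% higher and 11.8% lower. THEM4, a mitochondrial thioesterase that also binds AKT, went from 7.61 ± 1.38 to 15.1 ± 3.12 FPKM (0.89, limma adjusted p 0.0223), and SNX27, an endosomal sorting protein, from 5.88 ± 0.504 to 7.49 ± 0.515 FPKM (0.30, adjusted p 0.0477; SD, n = 3 each). CGN, the tight junction protein cingulin, fell from 15.2 ± 0.568 to 7.41 ± 0.0909 FPKM (-0.94, adjusted p 3.51e-04). All 3 lie beyond the S100A10 end of the region. Of the non-S100 genes tested within 500 kb of S100A2, only LOC101928034 lay on the S100A6 side, at -16.8 kb between gene middles. The others lay on the S100A16 side, from 75.6 to 427.0 kb. None of these genes was called in the test reported here, although JTB was called lower under upper quartile scaling and quantile normalization and SLC39A1 without iGLI2 replicate 1. S100A4, between S100A2 and S100A6, was not called either. The SNX27 call was lost whichever library was left out and with most other settings, and that of THEM4 whichever was left out except iGLI2 replicate 1.

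**Figure D4:**
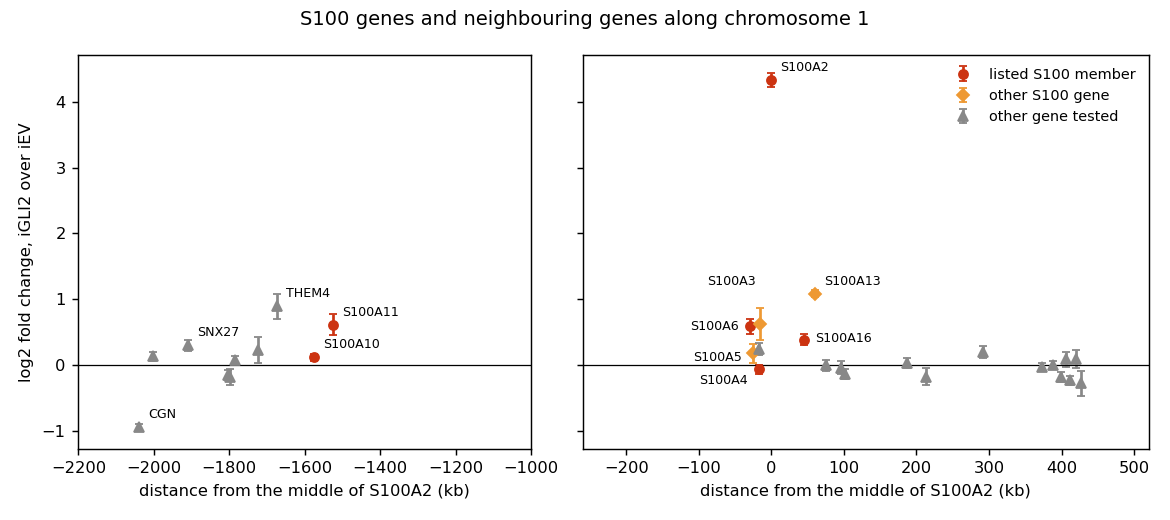
The log2 fold change of each gene tested (vertical axis, iGLI2 over iEV, bars are standard errors) is plotted against the distance of its middle from that of S100A2 in kb, for listed S100 members, other S100 genes and other genes tested. S100A2 at 4.33 and S100A13 at 1.08 stand above the non-S100 genes around them, which lie between -0.28 and 0.24. CGN lies at -0.94 at the far left.

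Of the 24 genes for S100 binding partners and receptors, 22 were tested. Of these, 3 rose, 5 fell and 14 were not called, with a median log2 fold change of -0.10. Over all genes tested, 10.1% were called higher and 11.8% lower. Among the annexins, ANXA2, the partner of S100A10, fell from 731, 752 and 738 FPKM to 566, 566 and 565 FPKM. The iGLI2 libraries were almost identical and all lower (-0.39, SE 0.05, limma adjusted p 0.00509). ANXA1, the partner of S100A11, was at 427, 474 and 461 FPKM in iEV and at 589, 673 and 679 FPKM in iGLI2 (0.51, SE 0.08, limma adjusted p 0.0101), and its call was lost without iGLI2 replicate 2 (adjusted p 0.0512). ANXA5, ANXA6 and ANXA11 were not called (0.12, -0.14 and 0.10). AHNAK, a giant scaffold protein that binds the S100A10 and annexin A2 complex, went from 19.5 ± 1.70 to 13.6 ± 0.774 FPKM (SD, n = 3 each; -0.48, limma adjusted p 0.0110).

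Since S100A10 and ANXA2 act in a fixed complex, their ratio was computed within each library. It was 0.681, 0.630 and 0.659 in iEV and 0.928, 0.934 and 0.942 in iGLI2, without overlap, a difference of 0.51 on the log2 scale or 1.42-fold (exact permutation p 0.1, two-sided, n = 3 each, the smallest possible). ANXA2 was the more abundant transcript in all 6 libraries.

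The plasminogen activators, whose substrate the S100A10 complex binds, were both lower. PLAU, the urokinase gene, was at 266, 373 and 350 FPKM in iEV and at 106, 116 and 118 FPKM in iGLI2 (-1.51, SE 0.14, limma adjusted p 0.00133). PLAT, the tissue-type activator, went from 49.8 ± 4.74 to 22.8 ± 1.14 FPKM (SD, n = 3 each; -1.09, adjusted p 9.03e-04). PLAUR, the urokinase receptor, moved the other way, from 8.24 ± 0.537 to 11.8 ± 0.490 FPKM (0.47, adjusted p 0.00595).

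MDM2, which encodes a ubiquitin ligase that several S100 proteins bind, rose from 6.93 ± 0.450 to 11.8 ± 1.09 FPKM (SD, n = 3 each; 0.68, limma adjusted p 0.00389). SUGT1, a co-chaperone bound by S100A6, fell from 22.8 ± 0.556 to 17.1 ± 2.21 FPKM (-0.40, adjusted p 0.0330), a call that was lost under 8 of 15 alternatives, including 5 of the 6 that leave out a library.

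AGER and TLR4, the genes of receptors through which released S100 proteins signal, were low and not called. AGER, the gene of RAGE, was at 1.23 ± 0.221 FPKM in iEV and 1.14 ± 0.0710 FPKM in iGLI2 (SD, n = 3 each; -0.06, limma adjusted p 0.730). TLR4 was at 8.97, 7.67 and 8.29 FPKM in iEV and at 12.2, 9.11 and 10.2 FPKM in iGLI2, without overlap, but not called (0.30, adjusted p 0.118). BSG, the gene of basigin and a receptor of S100A9, was at 180 and 164 FPKM, and EZR, the gene of ezrin and a partner of S100P, at 316 and 357 FPKM. Neither was called. MYH9, the heavy chain of the myosin bound by S100A4, went from 110 to 84.4 FPKM and was not called (-0.40, adjusted p 0.189).

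**Figure D5:**
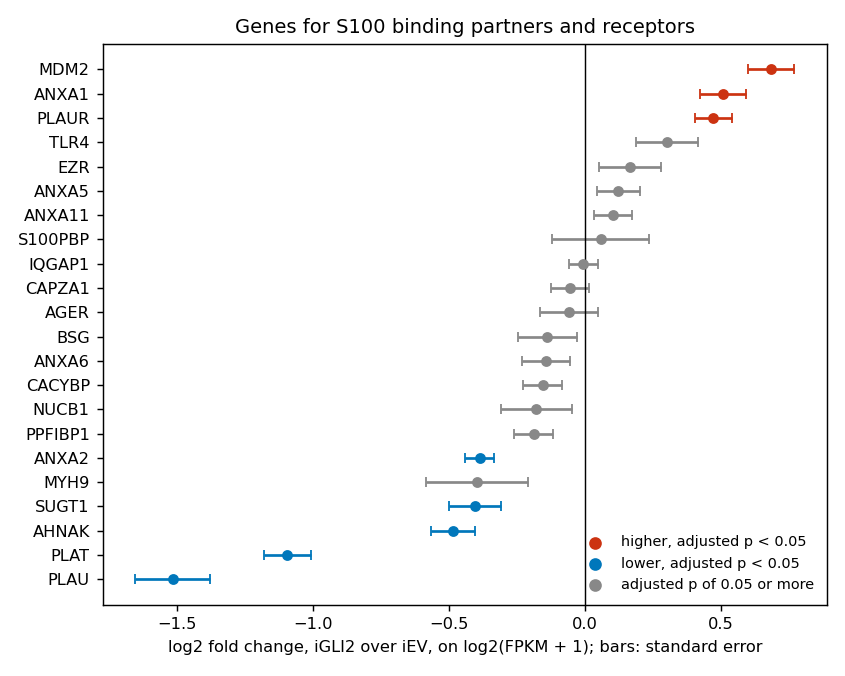
The log2 fold change of each tested gene for an S100 binding partner or receptor, iGLI2 over iEV on log2(FPKM + 1), is plotted on the horizontal axis with its standard error and colored by call. PLAU at -1.51 and PLAT at -1.09 lie farthest to the left, and MDM2 at 0.68 farthest to the right.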

How the data were processed

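Trimming by the authors was done with Trimmomatic, alignment to hg19 with TopHat2, and the differential step with Cuffdiff (2.1.1 in the submitters' processing notes). The deposited values were read as FPKM from their form, since the table names no unit; gene annotation and read assignment between overlapping genes are not given in the sources used here. Of 27024 entries, 1252 off the primary chromosomes and 330 with a repeated name were left out. A minimum mean of 1 FPKM left 12493 genes. Their log2(FPKM + 1) values went into limma 3.58.1 (R 4.3.3), with an intensity trend, condition as the only term and Benjamini-Hochberg adjustment at 0.05. Within-library ratios were compared with an exact permutation test (scipy 1.17.1). Named genes are all members, all other S100 genes, 24 binding partners and receptors (1 further gene of that list is not reported here), called neighbours within 500 kb, GLI2 and cell type markers. The members and lists were chosen with earlier results of these data known. Alternatives were other scalings, pseudocounts, minimums, blocks, no trend, and each library left out. Same-numbered replicates deviated together with correlations of 0.204, 0.0919 and 0.0276 and were not treated as pairs.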

Additional observations from a re-analysis of the deposited data

How the results depend on the processing

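Of the members, 4 were called higher and 1 lower. The count higher was 2 with no filter on low values and between 1 and 4 when 1 library was left out: 1 without iEV replicate 1, iEV replicate 2 or iGLI2 replicate 2, and 2 without iEV replicate 3 or iGLI2 replicate 3. S100A2 and S100P kept their calls under all 15 alternatives. The log2 fold change of S100A4 turned to 0.017 when small RNA genes were left out and libraries rescaled, and that of AGER ran from -0.1253 without iEV replicate 2 to 0.0154 without iEV replicate 3. That rescaling moved the median of all genes tested from -0.01 to 0.06 and the calls from 1262 higher and 1480 lower to 1793 and 1225, and it gave a summed member level 0.35 higher on the log2 scale, against 0.28 as reported. Other S100 genes called higher numbered 2, not 1, under that rescaling and with the replicate block. Genes near the members called higher numbered 1, not 2, under upper quartile scaling, quantile normalization, no filter, a mean of at least 5 FPKM, the library code digit as a block, and no trend, and 0 to 1 with a library left out. Those called lower numbered 2, not 1, under upper quartile scaling, quantile normalization and the replicate block, where JTB was added, and 1 to 2 with a library left out, where SLC39A1 was added without iGLI2 replicate 1. Without that library EZR was also called higher.

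With the replicate number as a block, all calls went to 1809 higher and 2119 lower. Same-numbered libraries also share all or part of the digit and letter in their codes, and whether they were handled together is not stated. S100A11 was then not called (adjusted p 0.0584 by limma), S100A3 (0.0162) and TLR4 (0.0266) were called higher, MYH9 and JTB were called lower, and the library code digit as a block also left out S100A11 (0.0787). With a library left out, all calls ran from 608 higher and 615 lower without iEV replicate 2 to 1855 and 1898 without iGLI2 replicate 1. A mean of at least 5 FPKM gave 824 and 1090, and the code digit block 962 and 1122. Depth is unknown, so a listed 0 sets no limit on a level. The causes were not tested.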
